A study of Mus musculus with 4 samples.

Results

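Genes of glycolysis were examined for RBPJ binding in alveolar macrophages (AMs), the macrophages that reside in the airspace of the lung. The 10 genes were taken by symbol from the mm10 gene models, out of 21755 protein-coding genes: the glucose transporter gene Slc2a1 and the enzyme genes Hk1, Hk2, Hk3, Gpi1, Pfkl, Aldoa, Gapdh, Pkm and Ldha. Peaks counted for a gene when they lay in its body, came within 1 kb of one of its transcription start sites (TSSs), or had it as the protein-coding gene with the nearest TSS. The AMs were lavaged and sorted from untreated WT C57BL/6J animals aged 9 wk, the only genotype of the series. RBPJ was profiled in 2 libraries (replicates 1 and 2) by HT-ChIPmentation, in which immunoprecipitated chromatin is tagged with adapters on the beads, and 2 input libraries served the peak calling. The labels do not say whether the replicates came from separate mice, so the spread between them may be technical.

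Glycolysis takes up glucose and splits it to pyruvate in the cytosol, giving ATP and NADH, and lactate dehydrogenase can then turn the pyruvate into lactate. Hexokinase, phosphofructokinase and pyruvate kinase catalyze its irreversible steps. Resident AMs live where glucose is scarce and are known to rely mainly on fatty acid oxidation, whereas inflammatory activation of macrophages raises glycolysis. RBPJ is the DNA-binding factor of the Notch pathway, which represses or activates its targets depending on whether the Notch intracellular domain is bound.

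The list of replicate 1 held 106228 peaks and that of replicate 2 held 47224. After overlapping peaks were joined across the lists, 25454 intervals held a peak of each library, and these are called consensus regions here. Each value of a region is the fold enrichment, on a linear scale, that the authors' peak caller gave the highest peak of a library over the background it estimated from input, and the lower fold is the smaller value of both libraries. Folds took few distinct values, 1925 in replicate 1 and 1198 in replicate 2, so that different genes often carried the same fold. Of 12 AM marker genes, 10 had a consensus region within 1 kb of a TSS, and Marco and Krt79 had one farther away. The count within 1 kb was 1 of 6 for alveolar type II markers (Etv5), 1 of 6 for neutrophil markers (S100a8), and 0 of 6 each for lymphocyte and endothelial markers. Of all protein-coding genes, 33.7% had a region there. With regions in the body or with the gene as nearest TSS included, 12 of 12 AM markers had one, beside 45.0% of all genes. On the same count, 1 of 6 alveolar type II markers had one, and 2 of 6 each of the neutrophil, lymphocyte and endothelial markers. Peaks are not expression, and the level of these transcripts was not measured here.

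Of the 10 glycolysis genes, 9 had at least 1 consensus region, beside 45.0% of all protein-coding genes, and Hk1 had none. A region lay within 1 kb of a TSS in 5 genes, Hk2, Hk3, Aldoa, Gapdh and Pkm, where 33.7% of all genes had one. A region overlapped the body in 7 genes, with Slc2a1 and Gpi1 added to those 5, beside 37.3% of all genes. Pfkl and Ldha had regions upstream only, and 9 genes were the nearest TSS of a region, beside 40.5%. The number with binding at a TSS depended on the library. Replicate 1 alone had a peak within 1 kb of a TSS in all 10 genes (46.1% of all genes), and replicate 2 alone in 6 (37.5% of all genes), namely the 5 above and Hk1. Genes chosen by name were not tested against the rest, and their counts stand only beside the share of all genes.

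**Figure D1:**
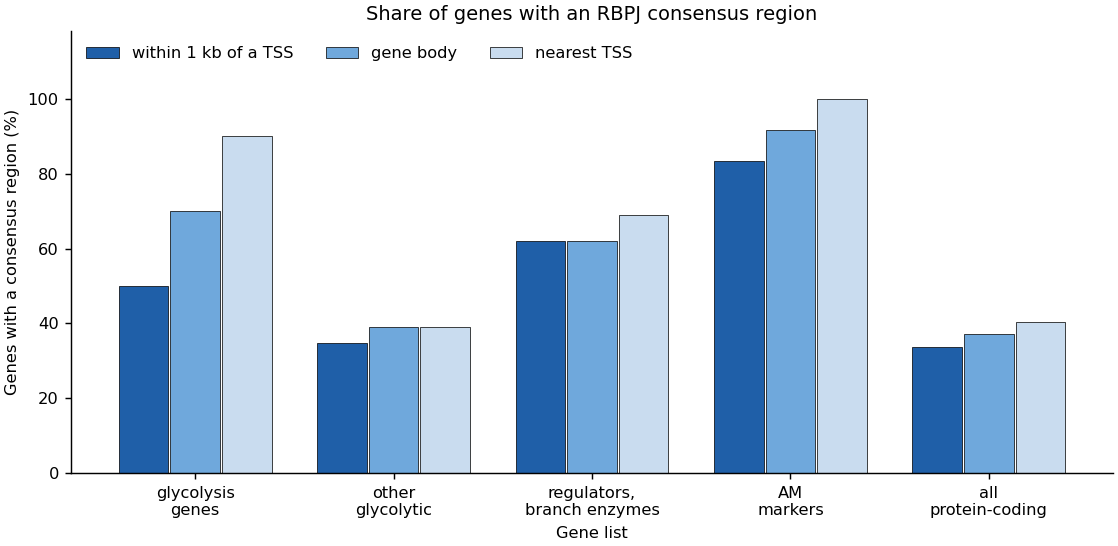
Percent of genes with an RBPJ consensus region (vertical axis) within 1 kb of a TSS, in the gene body or with the gene as nearest TSS, for 4 gene lists and all 21755 protein-coding genes (horizontal axis). The glycolysis genes reach 5, 7 and 9 of 10 in these classes, and all genes 33.7%, 37.3% and 40.5%.

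The 9 genes shared 30 consensus regions, and no region counted for more than 1 of them. Hk2 had 10, Gapdh 6, Pkm 5, Slc2a1, Aldoa and Ldha 2 each, and Hk3, Gpi1 and Pfkl 1 each. Of the 30 regions, 8 came within 1 kb of a TSS, 19 overlapped a gene body (these 8 among them) and 11 lay outside both. The summit fell in an intron in 13, upstream of the gene in 12, downstream in 2, in the noncoding part of an exon in 2 and in a coding exon in 1. Their median lower fold was 4.66 (range 3.24 to 12.0), where the median of all consensus regions was 4.69. The strongest region, at the Pkm promoter, was at or above 99.0% of all consensus regions in lower fold. In 22 of the 30 (73.3%) the fold was higher in replicate 1, as in 72.2% of all regions.

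**Figure D2:**
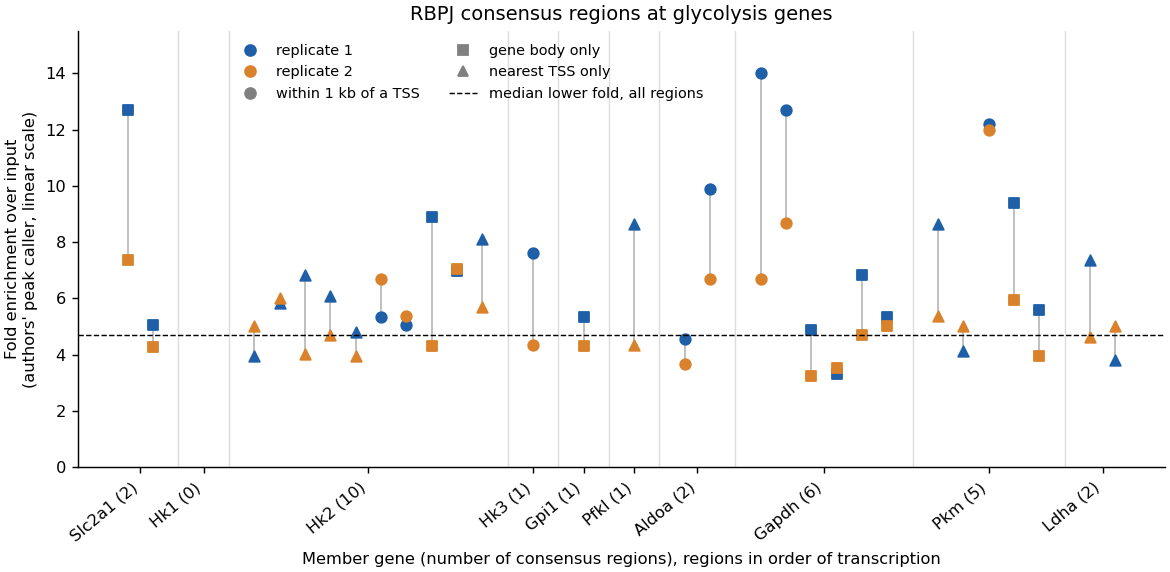
Fold enrichment over input (vertical axis, linear) in replicate 1 (blue) and replicate 2 (orange) for each of the 30 consensus regions, grouped by gene in the order of transcription (horizontal axis), with a gray line joining both libraries. Circles are regions within 1 kb of a TSS, squares other gene body regions, triangles regions with the gene as nearest TSS only, and the dashed line is the median lower fold of all consensus regions, 4.69. Both libraries are high at the Pkm promoter (12.2 and 12.0), whereas the Gapdh promoter region is far higher in replicate 1 (14.0 and 6.69).

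The sequences at the summit of the strongest region over a TSS are shown first for each of the 5 genes, with the second promoter region of Hk2, because they carry the proximal binding. Each is GRCm38 sequence reaching 100 bp to either side of the summit, taken from whichever library had the higher fold, 5′ to 3′ on the strand of the gene. Capitals mark matches on either strand to the 7 motifs searched for this display: the RBPJ core TGGGAA, the hypoxia response core ACGTG, the GC box GGGCGG, the ETS core CCGGAA, the CEBP motif TTGCNNAA, the AP-1 motif TGANTCA and the PU.1 motif GAGGAAGT.
Hk2, chr6:82774444-82774644 (minus strand): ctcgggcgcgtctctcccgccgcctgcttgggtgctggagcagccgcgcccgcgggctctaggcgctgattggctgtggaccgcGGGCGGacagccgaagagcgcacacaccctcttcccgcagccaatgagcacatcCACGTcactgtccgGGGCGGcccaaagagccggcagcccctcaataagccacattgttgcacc
Hk2 second promoter region, chr6:82773417-82773617 (minus strand): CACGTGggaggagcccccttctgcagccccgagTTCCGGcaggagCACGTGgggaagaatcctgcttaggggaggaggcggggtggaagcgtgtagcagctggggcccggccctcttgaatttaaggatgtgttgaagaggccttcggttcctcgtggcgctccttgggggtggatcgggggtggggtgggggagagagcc
Hk3, chr13:55021328-55021528 (minus strand): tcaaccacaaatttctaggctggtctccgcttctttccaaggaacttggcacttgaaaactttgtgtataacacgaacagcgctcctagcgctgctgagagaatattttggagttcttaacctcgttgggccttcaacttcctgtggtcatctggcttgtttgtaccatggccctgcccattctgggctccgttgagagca
Aldoa, chr7:126799442-126799642 (minus strand): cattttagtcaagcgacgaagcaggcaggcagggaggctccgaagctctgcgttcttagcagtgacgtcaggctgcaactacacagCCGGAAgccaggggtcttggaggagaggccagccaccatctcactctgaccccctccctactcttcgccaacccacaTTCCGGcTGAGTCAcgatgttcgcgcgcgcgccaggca
Gapdh, chr6:125165563-125165763 (minus strand): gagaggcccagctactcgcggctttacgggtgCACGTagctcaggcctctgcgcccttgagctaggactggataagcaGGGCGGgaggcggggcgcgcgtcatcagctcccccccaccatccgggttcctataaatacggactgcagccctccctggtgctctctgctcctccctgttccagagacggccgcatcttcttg
Pkm, chr9:59656282-59656482 (plus strand): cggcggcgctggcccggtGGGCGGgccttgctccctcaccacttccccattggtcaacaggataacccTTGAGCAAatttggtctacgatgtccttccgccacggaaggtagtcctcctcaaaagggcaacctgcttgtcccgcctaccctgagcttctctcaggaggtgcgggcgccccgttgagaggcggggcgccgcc
None of these 6 windows held the RBPJ core. The first Hk2 window held 2 GC boxes and 1 hypoxia core. The second held CACGTG at 2 places, each of which contains the hypoxia core on both strands, and 1 ETS core. The Aldoa window had 2 ETS cores and 1 AP-1 motif, and the Gapdh window 1 hypoxia core and 1 GC box. The Pkm window held 1 GC box and 1 CEBP motif, whereas the Hk3 window held none of the 7. Not shown are the windows of the other Aldoa and Gapdh regions within 1 kb of a TSS, which also held none of the 7.

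Glucose entry was examined first. Slc2a1 encodes GLUT1, the widely expressed facilitative glucose transporter, at chr4:119108711-119137983 on the plus strand. Replicate 1 had 2 peaks within 1 kb of its TSS, the stronger with its summit 57 bp downstream and a fold of 5.33 (−log10 q of 8.40), and replicate 2 had none. Both libraries instead marked intron 2. The region at chr4:119124926-119127786, 2861 bp wide, reached 12.7-fold in replicate 1 and 7.36-fold in replicate 2, with its summit 17389 bp downstream of the TSS. It held 1 broad peak in replicate 1 and 3 peaks in replicate 2, and the summits of the highest peaks lay 1353 bp apart. A smaller intron 2 region at chr4:119131192-119131411 had folds of 5.07 and 4.29 and lay within 1 kb of the TSS of Gm12867. Regions covered 10.5% of the Slc2a1 body, and 6.46% of all protein-coding genes were covered as much.

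Hexokinases phosphorylate glucose and so keep it in the cell, and the 3 members differed in binding. Hk2, the inducible isoform that can attach to mitochondria (chr6:82725025-82774454, minus strand), had 31 peaks in replicate 1 and 15 in replicate 2. Its 10 consensus regions spread from 72421 bp upstream of a TSS to 57473 bp downstream, and 2.31% of protein-coding genes had as many. The promoter region at chr6:82774034-82774845 reached 5.33-fold in replicate 1 and 6.69-fold in replicate 2, with its summit 90 bp upstream of the TSS. A second promoter region, chr6:82773418-82773605, lay 55 bp upstream of another TSS inside the gene and had folds of 5.07 and 5.36. Replicate 2 was the higher library in both promoter regions, unlike in most of the 30 regions.

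The strongest Hk2 region lay in intron 2 (chr6:82752596-82753986), 20158 bp downstream of the nearest TSS, with folds of 6.98 and 7.03. Intron 1 held a region at chr6:82763753-82764880 that was high in replicate 1 (8.88) and close to the median of its list in replicate 2 (4.32, beside 4.35). It overlapped the annotated gene Gm17034, a TSS of which lay within 1 kb. Beyond the gene, at 57473 bp from the TSS, folds were 8.11 and 5.69. Upstream, 5 regions lay at 6813, 23114, 50167, 69584 and 72421 bp from the TSS. Of these, the region at 69584 bp had the highest lower fold, with 5.84 in replicate 1 and 6.02 in replicate 2. The region at 50167 bp overlapped Gm32591 and had 6.85 and 4.02.

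Hk1, the constitutive isoform (chr10:62268855-62379908, minus strand), had no consensus region. Near its TSS at chr10:62340542 replicate 1 had a peak with a fold of 3.55 (−log10 q of 3.32) and replicate 2 a peak with a fold of 3.35 (−log10 q of 1.85). These peaks lay 152 bp apart and did not overlap, and they were at or above only 29.3% and 11.7% of the peaks of their lists. The other 3 TSSs of Hk1 had no peak within 1 kb, and the nearest consensus region was 69758 bp from any Hk1 TSS. Hk1 is long, at 111054 bp. Of 3715 protein-coding genes between 0.5 and 2 times its length, 49.9% had a consensus region in the body.

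Hk3, the isoform typical of myeloid cells (chr13:55005985-55021385, minus strand), had 1 region, chr13:55020681-55021724, over all 3 of its TSSs. Replicate 1 gave 7.61 (−log10 q of 16.5) and replicate 2 gave 4.35 (−log10 q of 3.79), with the summit 43 bp upstream of a TSS. Farther upstream, between 14315 and 20533 bp, replicate 1 had 4 peaks with folds of 2.93 to 4.57, and replicate 2 had 1 peak at 23329 bp with a fold of 3.80, so that neither list matched the other there. The Hk3 promoter was lost from the bound set at a −log10 q of at least 5 in both libraries, and also when summits had to lie within 100 bp, since they were 138 bp apart.

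The next enzymes were bound away from their promoters. Gpi1 encodes glucose-6-phosphate isomerase, which makes fructose-6-phosphate (chr7:34201330-34230336, minus strand). Replicate 1 had 3 peaks within 1 kb of its TSS, the highest at a fold of 4.31 (−log10 q of 5.34), and replicate 2 had none. Its consensus region lay in intron 9 at chr7:34214654-34214893, with folds of 5.33 and 4.30 and summits 42 bp apart. Pfkl encodes the liver-type phosphofructokinase, the committing step of the pathway (chr10:77986947-78010083, minus strand). At its TSS replicate 1 had 1 peak with a fold of 3.30, and replicate 2 had none. The consensus region of Pfkl, chr10:78015328-78015944, lay 5887 bp upstream and had 8.63 in replicate 1 but 4.35 in replicate 2. Of the 8 replicate 1 peaks at Pfkl, 7 lay outside this region, and all 7 had their summit upstream of the TSS and no partner in replicate 2.

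Aldolase A, encoded by Aldoa, splits fructose-1,6-bisphosphate into triose phosphates. Its regions covered 46.8% of the gene body (chr7:126795234-126800751, minus strand), and 0.979% of protein-coding genes were covered as much, or 1.67% of those between 0.5 and 2 times its length. The larger region, chr7:126797869-126800026, spanned the TSSs at chr7:126799254 and chr7:126799141, with folds of 9.89 in replicate 1 and 6.69 in replicate 2. Over the upstream TSS, at chr7:126800447, a second region, chr7:126800142-126800568, was weaker, with 4.57 and 3.68. Both regions also overlapped the body of Fam57b, and a TSS of Fam57b lay within 1 kb of the larger region, so that binding there cannot be told apart between these genes. Summits of the libraries lay 288 and 179 bp apart, and neither region remained when summits had to lie within 100 bp. The annotation holds a second gene entry under the same symbol, chr7:126800790-126809108. Its only TSS had 1 peak of replicate 2 (fold 4.32), no peak of replicate 1 and no consensus region.

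Gapdh encodes glyceraldehyde-3-phosphate dehydrogenase, the step that reduces NAD. It is a short gene (chr6:125161715-125166467, minus strand, 4753 bp), and 6 consensus regions covered 63.4% of it. Of all protein-coding genes, 0.575% were covered as much, as were 1.13% of 5576 genes between 0.5 and 2 times its length, and the median among genes with any region in the body was 2.60%. The promoter region, chr6:125165201-125166835, had the highest fold of the set in replicate 1 (14.0) and 6.69 in replicate 2, with summits 24 bp apart and the stronger in the noncoding part of an exon, 110 bp downstream of a TSS. The adjoining region in intron 2, chr6:125164285-125165126, had its summit 939 bp downstream of the same TSS, at chr6:125165773, with 12.7 and 8.70. The 4 regions farther downstream were weaker, with 3.30 to 6.85 in replicate 1 and 3.24 to 5.02 in replicate 2.

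The only region of the set with its summit in a coding exon was one of these 4, chr6:125162911-125163204, with folds of 3.30 and 3.54. Of its bases, 67.7% lay in stretches of at least 50 bp that occur elsewhere in GRCm38 without a mismatch. These gave 70 exact alignments, several of which can fall at the same place. Gapdh is known for its many processed pseudogenes. The share of this peak that comes from reads of such copies was not tested. Of the other 29 regions, 1 held such a stretch, the nearer Ldha region, over 12.9% of its length. The last Gapdh region, chr6:125161447-125161815, had folds of 5.33 and 5.02, ran past the end of the gene and overlapped Iffo1, which encodes an intermediate filament family protein.

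**Figure D3:**
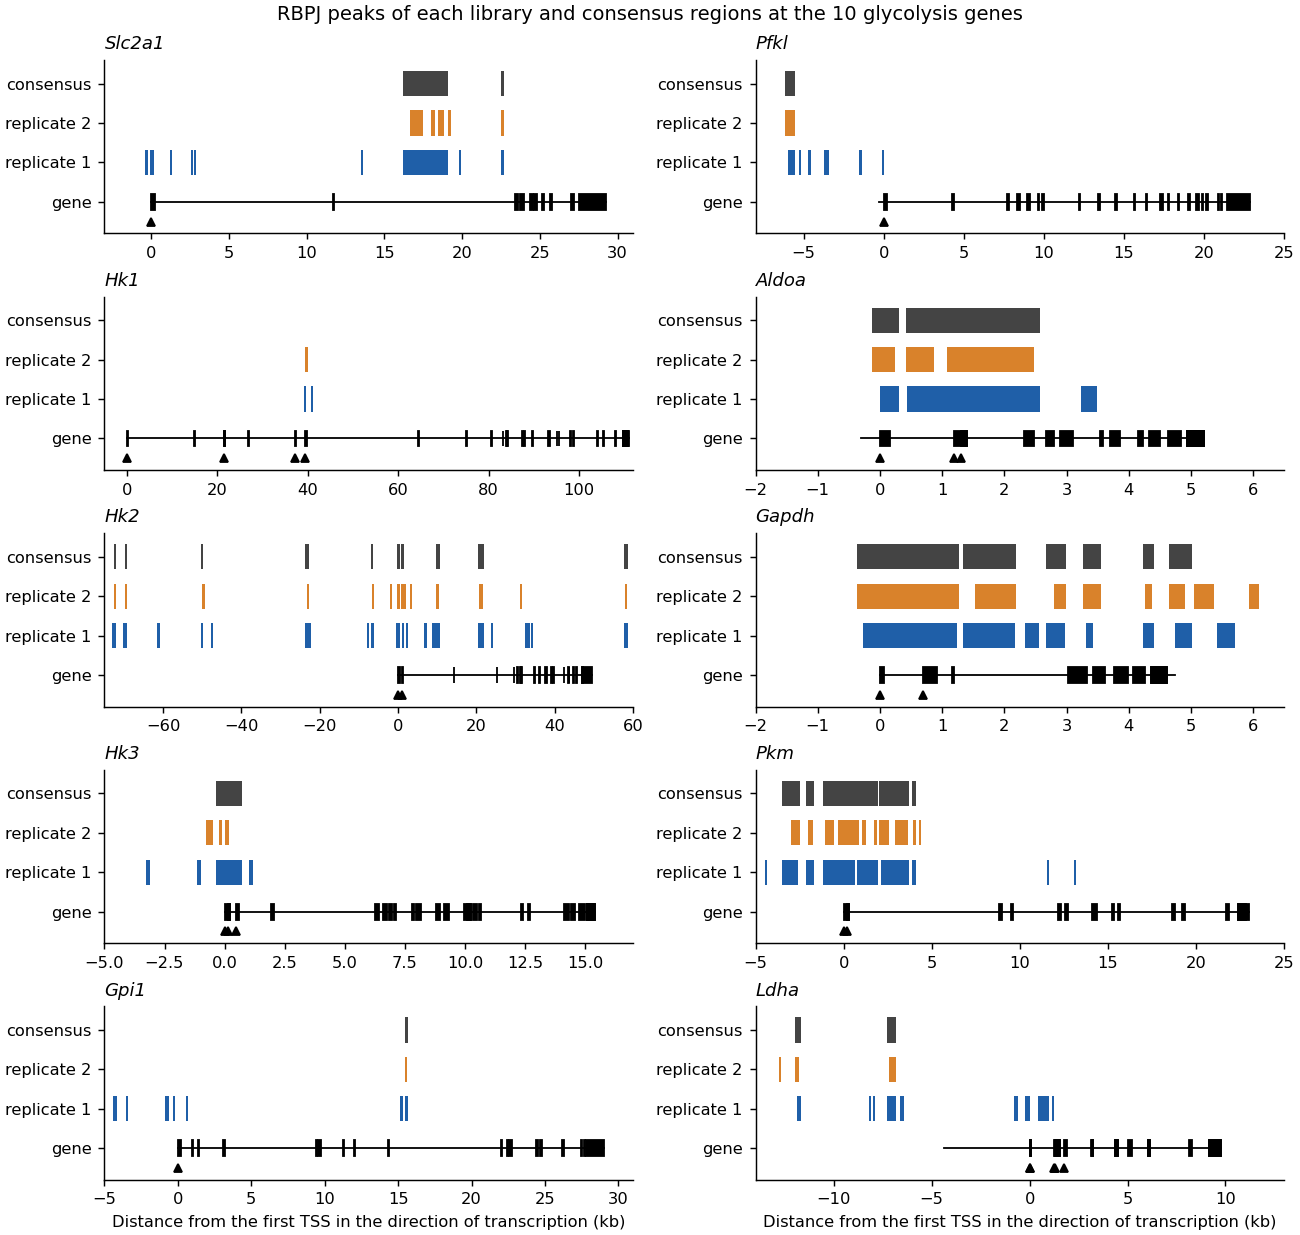
Peaks of replicate 1 (blue) and replicate 2 (orange) and consensus regions (dark gray) at the 10 genes, against distance from the first TSS in the direction of transcription (horizontal axis, kb, a different scale in each panel), with exons as black boxes and TSSs as triangles. Peaks beyond the panels are not drawn, narrow peaks are widened to be visible, and the panel of Aldoa shows the gene entry with consensus regions. Gapdh and Aldoa are covered over 63.4% and 46.8% of the body, Hk1 has peaks of single libraries only, and Pfkl and Ldha are marked upstream.

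Pyruvate kinase makes pyruvate and ATP in the last step, and Pkm encodes its M1 and M2 forms (chr9:59656368-59679375, plus strand). Its promoter region had the highest lower fold of the 30, with 12.2 in replicate 1 and 12.0 in replicate 2 (−log10 q of 35.9 and 27.0). These folds were at or above 98.1% and 99.1% of the peaks of the lists. The region, chr9:59655202-59658335, was 3134 bp wide, and 2.15% of all consensus regions were wider than 3 kb. Its summit lay 14 bp downstream of the TSS, with both summits 48 bp apart. It was joined on the gene side by a region in intron 1, chr9:59658363-59660059, with 9.39 and 5.94, and then by chr9:59660221-59660464 with 5.58 and 3.96. Upstream, regions at 2835 and 1868 bp from the TSS had 8.63 and 5.36, and 4.13 and 5.02. All 5 Pkm regions lay between 2835 bp upstream and 3714 bp downstream of a TSS by their summits. No consensus region lay over the middle or end of the gene. Replicate 1 had single peaks in introns 3 and 5, at 11341 and 12925 bp, with folds of 4.31 and 3.81.

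Ldha encodes the A subunit of lactate dehydrogenase, which makes lactate from pyruvate (chr7:46841475-46855627, plus strand). Its 5 TSSs lay near 4 peaks of replicate 1, with a highest fold of 4.82 (−log10 q of 6.82), and replicate 2 had no peak within 1 kb of any. The consensus regions were upstream. The one at chr7:46833864-46834150, 11802 bp from the first of these 5 TSSs, had folds of 7.36 and 4.62. The one at chr7:46838578-46839011, 7021 bp from it, had 3.81 and 5.02. That first TSS is chr7:46845839, and the gene entry itself starts nearer to both regions, at chr7:46841475.

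How far both libraries agreed at these genes was compared with the lists as a whole. Replicate 1 had 99 peaks at the 10 genes, of which 32 (32.3%) overlapped a peak of replicate 2, beside 26.0% over the whole list. Replicate 2 had 53, of which 39 (73.6%) overlapped a peak of replicate 1, beside 66.3%. The 67 peaks of replicate 1 without a partner had a median fold of 4.05 and reached 6.09, whereas the 32 inside consensus regions had a median of 6.47. For replicate 2, the 14 peaks without a partner had a median fold of 4.02 and the 39 inside consensus regions 5.01. Summits of the highest peaks of both libraries lay a median of 89.0 bp apart in the 30 regions and 94.0 bp in all regions.

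Sequence motifs were counted within 100 bp of the summits of all 30 regions and of all 25454 consensus regions, on both strands. The RBPJ core was present in 6 of the 30 (20.0%), beside 18.8% of all regions. All 6 lay outside the promoter windows, in 5 genes. None of the 8 regions within 1 kb of a TSS held it at the summit, where 17.9% of all such regions did, and 6 of the other 22 (27.3%) did, beside 19.2%. The longer form GTGGGAA, which contains the core, was found in 1 region, upstream of Hk2 (3.33%, beside 4.64%). One window with the core is given for each of the 5 genes, on the strand of the gene and with the core in capitals, to show where the recognition sequence lay near a summit. At the summits of replicate 2 the core was in 4 of the 30 regions (13.3%, beside 19.3%), and the Slc2a1 and Pkm regions were not among them. Their summits lay 1353 and 304 bp apart between the libraries.
Slc2a1 intron 2, chr4:119126000-119126200 (plus strand): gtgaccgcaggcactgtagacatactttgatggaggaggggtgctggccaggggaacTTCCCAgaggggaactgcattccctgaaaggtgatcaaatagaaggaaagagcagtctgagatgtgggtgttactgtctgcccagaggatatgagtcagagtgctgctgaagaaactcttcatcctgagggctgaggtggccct
Hk2 upstream, chr6:82781167-82781367 (minus strand): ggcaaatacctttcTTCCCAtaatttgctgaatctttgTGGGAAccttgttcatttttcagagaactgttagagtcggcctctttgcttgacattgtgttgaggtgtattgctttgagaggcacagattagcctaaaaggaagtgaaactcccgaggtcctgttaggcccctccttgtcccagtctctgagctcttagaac
Gpi1 intron 9, chr7:34214709-34214909 (minus strand): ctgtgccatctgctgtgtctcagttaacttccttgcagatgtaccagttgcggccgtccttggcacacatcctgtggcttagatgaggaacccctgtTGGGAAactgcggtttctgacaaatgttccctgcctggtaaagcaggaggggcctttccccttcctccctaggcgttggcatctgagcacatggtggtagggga
Gapdh intron 6, chr6:125162057-125162257 (minus strand): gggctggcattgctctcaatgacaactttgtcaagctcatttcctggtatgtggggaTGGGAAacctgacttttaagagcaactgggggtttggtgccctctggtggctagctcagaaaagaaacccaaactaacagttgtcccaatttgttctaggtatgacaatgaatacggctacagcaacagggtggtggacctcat
Pkm upstream, chr9:59653433-59653633 (plus strand): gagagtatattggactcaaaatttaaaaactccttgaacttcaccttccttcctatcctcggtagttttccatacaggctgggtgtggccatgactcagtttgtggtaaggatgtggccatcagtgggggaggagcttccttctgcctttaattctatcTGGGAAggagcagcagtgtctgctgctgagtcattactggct
The Gpi1 match began 3 bp before the summit, the nearest of all. The Hk2 window held 2 matches on opposite strands, the Slc2a1 match lay on the strand opposite to the gene, and the matches in the Slc2a1, Gapdh and Pkm windows began 43 bp before, 43 bp before and 59 bp after the summit. Neither match in the Hk2 window lay wholly inside its consensus region, chr6:82780934-82781328. Within 50 bp of the summit 3 of 30 held the core, beside 9.97%, and over the whole length of the regions 15 of 30 held the core, beside 48.6% of all regions. Promoter regions of Aldoa, Gapdh and Pkm were among these 15, with the core away from the summit window.

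Other motifs were counted in the same windows. The CEBP motif was present in 9 of the 30 regions, beside 14.3% of all regions, and 6 of these 9 belonged to Hk2. It was in 3 within 50 bp of the summit (beside 7.88%) and in 11 over whole regions (36.7%, beside 33.4%). The AP-1 motif was present in 6 (20.0%), beside 9.30%, in Slc2a1, Hk2, Aldoa and Pkm, but in 3 at the summits of replicate 2 (beside 8.26%) and in 3 within 50 bp of the summit (beside 5.16%). The ETS core was present in 4 (13.3%), beside 8.98%, and the PU.1 motif in 1 Hk2 region (3.33%, beside 6.53%). The GC box was found in 4 (13.3%), beside 14.3%. The hypoxia core ACGTG was present in 6 (20.0%), beside 14.5%, and all 6 were at Hk2, Gapdh and Pkm. The E-box CACGTG, which contains the hypoxia core, was in 2 (6.67%, beside 4.88%). Regions of 1 gene are not independent and these counts are small, so they are given as a description. The 8 promoter windows had a median GC content of 62.7% (range 48.8% to 68.7%), beside 53.2% over all regions within 1 kb of a TSS. The 22 other windows had 45.8%, beside 44.3%.

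RefSeq promoters, windows of 300 bases that lie mostly before a start in GRCm38.p6, were matched by symbol for all 10 genes (15 promoters). The hypoxia core was present in 9 of the 15, in 8 genes, beside 19.6% of 32851 promoters. The GC box was in 8, in 7 genes, beside 35.7%. The 15 ranged from 49.0% to 67.3% in GC and up to 1.03 in the ratio of observed to expected CpG, beside medians of 52.7% and 0.384 over all promoters, and the hypoxia core itself holds a CpG. An overlapping pair of Aldoa promoters was counted separately. The RBPJ core was found in 1, that of Gapdh, beside 25.6% of all promoters. Thus Slc2a1, Hk1 and Ldha, which lacked a consensus region at the promoter, held the hypoxia core there, as did Hk2, Hk3, Aldoa, Gapdh and Pkm.

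The rest of the pathway was read from 23 further genes of glucose import, glycolysis and lactate transport. A consensus region lay within 1 kb of a TSS in 8 (34.8%, beside 33.7% of all genes). The 6 with the highest lower fold were Pgam1 (phosphoglycerate mutase, 8.12 in replicate 1 and 7.70 in replicate 2), the lysosomal hexose transporter gene Slc2a6 (10.1 and 7.03), Eno1 (enolase, 7.87 and 6.36), Tpi1 (triose phosphate isomerase, 8.12 and 6.27) and the phosphofructokinase genes Pfkp (6.09 and 6.36) and Pfkm (6.34 and 5.69). The Pkm promoter, at 12.2 and 12.0, stood above them all. A region of any class was found at 9 of the 23 (39.1%, beside 45.0% of all genes), and the 14 without included Aldoc, Eno2 and Eno3, which encode isoenzymes typical of brain and muscle. No promoter region was found at any gene of the isomerase (Gpi1), phosphoglycerate kinase (Pgk1 and Pgk2) or lactate dehydrogenase (Ldha, Ldhb and Ldhc) steps, which are named here after their values were seen. Pgk1 had 2 promoter peaks in replicate 1 and no region.

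**Figure D4:**
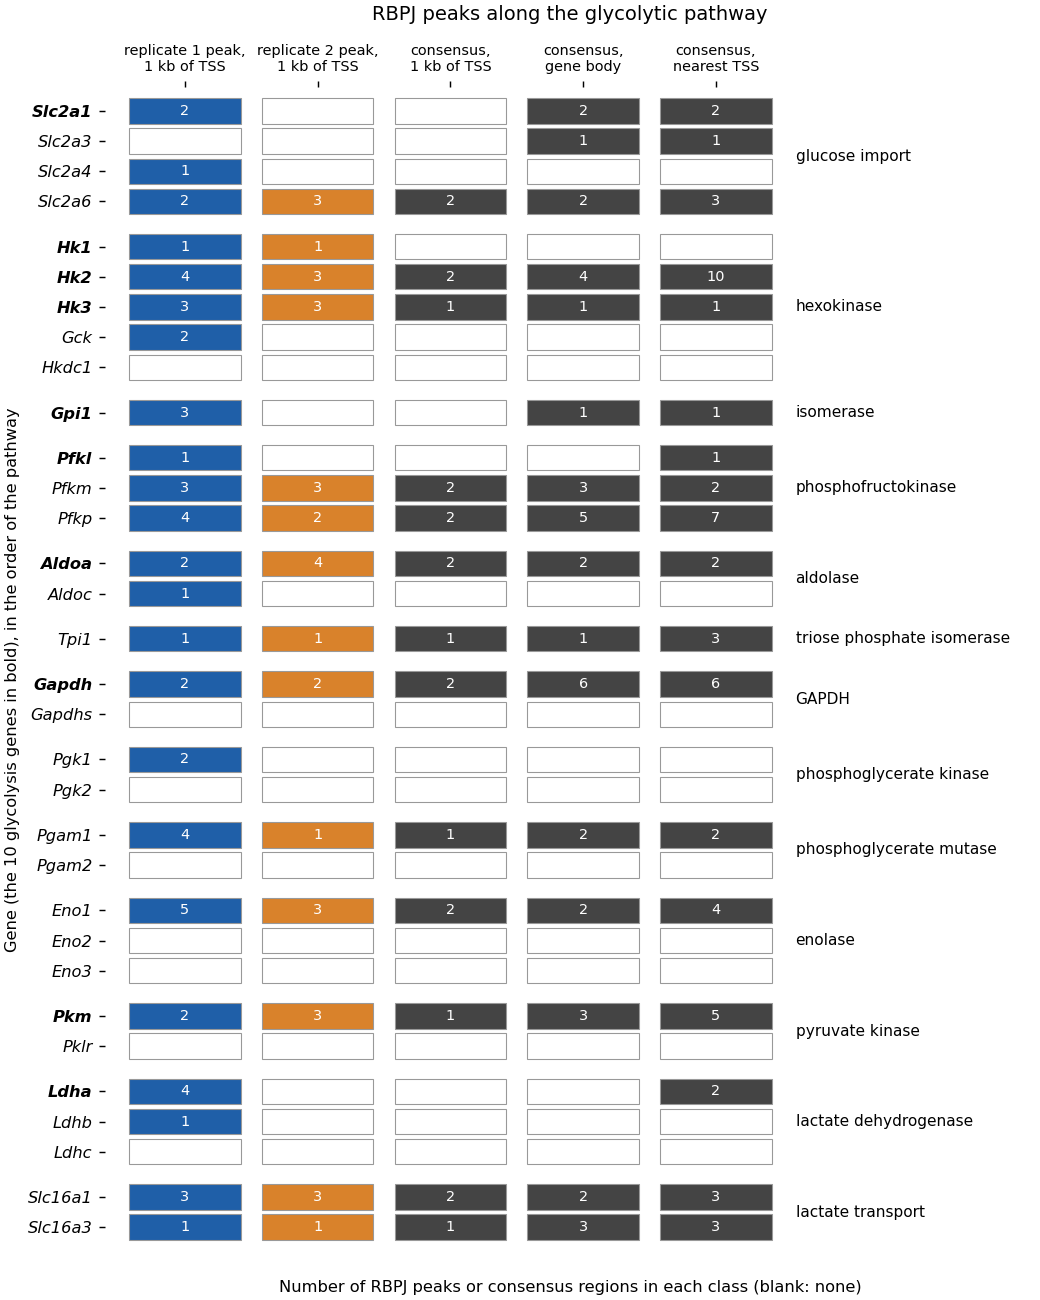
Number of peaks of each library within 1 kb of a TSS and of consensus regions in 3 classes (columns) for genes in the order of the pathway (rows), with the 10 glycolysis genes in bold and blank cells for none. Phosphofructokinase shows Pfkm and Pfkp with promoter regions and Pfkl without, and lactate dehydrogenase and phosphoglycerate kinase have promoter peaks of replicate 1 only.

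Regulators and enzymes of the branches were counted as well, since they feed, drain or control glycolysis. A consensus region lay within 1 kb of a TSS in 18 of 29 genes (62.1%, beside 33.7% of all genes). The 6 highest were Taldo1 (13.7 in replicate 1 and 9.71 in replicate 2) and Pgd (11.9 and 7.03) of the pentose phosphate pathway, Arnt (9.39 and 8.70), the partner of HIF1α, Pdk2 (7.87 and 7.73), a kinase that inhibits pyruvate dehydrogenase, G6pc3 (7.36 and 8.03), a glucose-6-phosphatase, and the oxygen sensor gene Egln2 (9.39 and 5.59). The wide Taldo1 region came within 1 kb of a TSS, but its summit lay 2268 bp downstream of the nearest one. A region of any class was found at 22 of the 29 (75.9%, beside 45.0% of all genes), and the 7 without included Egln1, Fbp1, Fbp2 and G6pc. Pfkfb3, which makes the activator of phosphofructokinase and is named here after its values were seen, had 14 regions, more than the 10 of Hk2.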

How the data were processed

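HT-ChIPmentation libraries of sorted AMs were examined as peak lists, 1 for each RBPJ library. Per the methods of the paper and the submitters' processing notes, the authors demultiplexed reads (bcl2fastq 2.20.0.422, CASAVA), and the reads were trimmed (Cutadapt), aligned to mm10 (Bowtie2), filtered (SAMtools) and used for peak calling against input (MACS3), library by library. The lists as deposited give fold enrichment at the summit (a ratio), −log10 p, −log10 q and a display score from the authors' peak caller. Fold and −log10 q were used, and −log10 p and the score were not. The lists themselves carry no read depth, the study's sequencing quality table was not used here, and no interval was computed. No file of the inputs was analysed here.

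Peaks of all 20 chromosomes lay within GRCm38, and coordinates count from 1. Genes came from GENCODE vM21 basic transcripts. Peaks of both lists overlapping by at least 1 bp were merged, and intervals with a peak of each library were kept. The nearest TSS was taken from the midpoint of an interval. Exact copies of 50 bp or more were sought with blastn 2.17.0. Analyses ran in Python 3.11.15 with matplotlib 3.10.9. Merging, assignment and motif search were tested on simulated data. The genes, lists and alternatives were chosen with earlier results of these data known. Genes named from the further lists were the 6 highest in lower fold at a TSS and the first 4 in alphabetical order without a region, of which 1 gene is counted but not reported by name here. With 1 condition and 2 libraries, no contrast between groups could be tested.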

Additional observations from a re-analysis of the deposited data

How the results depend on the processing

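With 2 libraries and no read counts, agreement between replicates limits every value. The number of glycolysis genes with a region within 1 kb of a TSS was 5 in the main setting (33.7% of all genes). It was also 5 with windows of 0.5 kb (31.7%) or 3 kb (36.2%), all transcripts (35.0%), or replicate 1 shortened to the length of replicate 2 (30.6%). It was 4 at a −log10 q of at least 5 (24.0% of all genes), 3 with summits within 100 bp (22.6% of all genes), 6 in replicate 2 alone (37.5%) and 10 in replicate 1 alone (46.1%). Regions numbered 15 under that q threshold and 53 to 99 in single libraries. Genes nearest to a region fell from 9 to 5 at that threshold, where Hk3, Gpi1, Pfkl and Ldha had none left. The share of all genes fell as well, from 40.5% to 29.6%. Promoter regions were found in 8 to 13 of the 23 further pathway genes in single libraries, beside 37.5% to 46.1% of all genes. They were found in 9 (same q threshold, beside 24.0% of all genes) and 11 (summits within 100 bp, beside 22.6%) of the 29 regulators and branch enzymes. Of the replicate 1 peaks at the 10 genes, 29 of 48 (60.4%) were shared when that list was shortened. With summits within 100 bp, 20 of 99 (20.2%) in replicate 1 and 20 of 53 (37.7%) in replicate 2 were shared at these genes. The RBPJ core was in 3 regions within 50 bp of the summit and in 15 over whole regions.

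The fold of the strongest peak of a gene in single libraries ranged from 7.36 to 12.7 for Slc2a1, 7.03 to 8.88 for Hk2, 4.35 to 7.61 for Hk3, 4.30 to 5.33 for Gpi1, 4.35 to 8.63 for Pfkl, 6.69 to 9.89 for Aldoa, 8.70 to 14.0 for Gapdh, 12.0 to 12.2 for Pkm and 5.02 to 7.36 for Ldha. At Hk2, Gapdh and Ldha both ends of the range came from different regions. The Gapdh promoter region itself had 14.0 in replicate 1 and 6.69 in replicate 2. The lower fold of the strongest Hk2 region was 5.84 with summits within 100 bp, beside 6.98 in the main setting. Fewer peaks or libraries enter these settings by construction, and no other cause was tested. No paired analysis was possible because no groups were compared by a test and no file of the inputs was analysed here.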
